A study of Mus musculus with 16 samples.

Results

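Il33 and 9 other cytokine genes were followed in 2 mouse mammary carcinoma cell lines of the 4T1 model. The 10 genes were Il33, Il1a, Il1rn and Il18 of the interleukin-1 family, Il6, Il11 and Lif of the interleukin-6 family, and the colony-stimulating factors Csf1, Csf2 and Csf3. They were chosen by name from a table of 33072 genes, with earlier results of these data in view, so their own values are given as a description and without p-values. The lines were 4T1, labelled metastatic, and 67NR, labelled non-metastatic, both from spontaneous mammary carcinoma of BALB/c mice. Each line was given vehicle or 15 µM CIX, an inhibitor of the phospholipase cPLA2α, for 24 h. This made 4 groups of 4 samples, and each line is a single line in culture, so a difference between lines is a difference between these 2 lines. Samples are named by the numbers in their labels: 67NR vehicle 1, 5, 9 and 13, 67NR CIX 2, 6, 10 and 14, 4T1 vehicle 3, 7, 11 and 15, and 4T1 CIX 4, 8, 12 and 16.

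Interleukins 1α, 18 and 33 belong to the interleukin-1 family and signal through receptors that recruit the adaptor MyD88. Interleukin-33 is kept in the nucleus and released from damaged cells, and ST2, encoded by Il1rl1, is its receptor. Interleukin-1 receptor antagonist, encoded by Il1rn, occupies the interleukin-1 receptor without signalling. Interleukin-6, interleukin-11 and leukemia inhibitory factor signal through gp130, encoded by Il6st. The products of Csf1, Csf2 and Csf3, known as M-CSF, GM-CSF and G-CSF, drive the formation of macrophages and granulocytes, and tumors that release G-CSF are known for raised neutrophil numbers in blood.

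On the mouse genome GRCm38, Il33 (ENSMUSG00000024810) lies at chr19:29925114-29960718 on the plus strand. Il1a (ENSMUSG00000027399) at chr2:129299610-129309972 and Il1rn (ENSMUSG00000026981) at chr2:24336853-24351494 share chromosome 2. Il18 (ENSMUSG00000039217) is at chr9:50554827-50581840, where Tex12 and Bco2 overlap it on the opposite strand. Il6 (ENSMUSG00000025746) is at chr5:30013114-30019981, Il11 (ENSMUSG00000004371) at chr7:4772373-4782859 and Lif (ENSMUSG00000034394) at chr11:4257557-4272514. Csf1 (ENSMUSG00000014599) is at chr3:107741048-107760469. Csf2 (ENSMUSG00000018916) at chr11:54247271-54249667 and Csf3 (ENSMUSG00000038067) at chr11:98701263-98703629 are both on chromosome 11. All 10 are annotated as protein coding. Of the 31-base words in the transcripts of Il11, 5.15% also occurred in another gene, against at most 0.441% for the other 9 genes, so that reads could be shared with another gene most readily for Il11.

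RefSeq promoter windows, from 250 bases before to 50 bases after a start of transcription on GRCm38.p6, were found for 9 of the 10 genes, with 13 windows in all. They were searched on both strands for AP-1 (TGANTCA), the NF-kB motif and the TATA box (TATAAA). AP-1 was found in 5 of the 13 windows, those of Il1a, Il1rn, Il6, Il11 and Lif, and in 7.81% of all 32851 windows. The NF-kB motif was found in 3 of the 13 windows (Il6, Lif and Csf1) and in 8.46% of all windows. TATAAA was found in 5 of the 13 windows and in 13.6% of all windows. Il33 had windows at 2 starts, and both are shown because its counts are summed over the gene and do not say which start was used. Il11 also had windows at 2 starts. Its second is shown beside that of Il1a because these genes were higher in opposite lines and these windows hold an AP-1 motif, while the first Il11 window, at chr7:4782808-4783107, held none of the motifs searched. A match is a description of the letters and not a measured binding site. Capitals mark the motifs, and positions are counted from the start of transcription, which is 0.
Il33, first start, chr19:29924863-29925162, plus strand: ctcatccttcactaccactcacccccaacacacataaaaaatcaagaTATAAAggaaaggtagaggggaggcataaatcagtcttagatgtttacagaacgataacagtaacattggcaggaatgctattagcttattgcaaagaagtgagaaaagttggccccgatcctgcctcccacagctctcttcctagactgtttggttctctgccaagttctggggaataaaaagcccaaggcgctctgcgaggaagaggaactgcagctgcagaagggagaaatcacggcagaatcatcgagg
Il33, second start, chr19:29945540-29945839, plus strand: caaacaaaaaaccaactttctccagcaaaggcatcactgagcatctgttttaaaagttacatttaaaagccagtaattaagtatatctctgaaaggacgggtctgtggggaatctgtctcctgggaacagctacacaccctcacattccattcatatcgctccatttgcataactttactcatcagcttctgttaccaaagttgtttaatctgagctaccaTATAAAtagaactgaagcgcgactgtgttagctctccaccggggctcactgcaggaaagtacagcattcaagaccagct
Il1a, chr2:129309923-129310222, minus strand: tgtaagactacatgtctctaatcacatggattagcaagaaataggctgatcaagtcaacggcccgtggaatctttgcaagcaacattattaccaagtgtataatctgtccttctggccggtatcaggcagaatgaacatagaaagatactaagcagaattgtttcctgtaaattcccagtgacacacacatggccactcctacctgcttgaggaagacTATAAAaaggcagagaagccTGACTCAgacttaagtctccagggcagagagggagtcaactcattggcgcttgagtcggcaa
Il11, second start, chr7:4778092-4778391, minus strand: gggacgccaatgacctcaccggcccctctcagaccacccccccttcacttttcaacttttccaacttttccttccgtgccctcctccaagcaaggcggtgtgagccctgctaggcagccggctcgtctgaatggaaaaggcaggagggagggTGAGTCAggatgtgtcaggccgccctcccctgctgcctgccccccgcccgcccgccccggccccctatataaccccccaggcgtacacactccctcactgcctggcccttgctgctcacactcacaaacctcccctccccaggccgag
The TATAAA of the second Il33 start was at -29 to -24 and that of Il1a at -32 to -27, while that of the first Il33 start was at -203 to -198. The AP-1 motif was at -12 to -6 in Il1a and at -98 to -92 in Il11.

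AU-rich motifs in 3′ untranslated regions mark many short-lived cytokine RNAs. The longest annotated 3′ untranslated region of each gene was searched on its own strand for the 9-base motif TTATTTATT, written as DNA. It occurred 5 times in Il11, 4 times in Csf2, 2 times in Lif and in none of the other 7 genes. Among 11703 genes expressed in either line, 8.22% held it at least once. The 5-base core ATTTA reached 28.4 per 1000 bases in Csf2, 8.97 in Csf3, 8.38 in Il11 and 6.00 in Il6, against a median of 1.22 over those 11703 genes. Its density was 1.79 per 1000 bases in Il33 and 1.90 in Csf1, and Il1rn held none. The first 9-base motif of each gene that held it is shown in capitals with the bases around it.
Il11, chr7:4773502-4773530, minus strand: aaaccagatcTTATTTATTtatttatttt
Lif, chr11:4272039-4272067, plus strand: aaaggggcctTTATTTATTatttaaaact
Csf2, chr11:54247329-54247357, minus strand: ttttaaatatTTATTTATTtatttattta

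The deposited estimated counts summed to between 21715700 and 29450629 per sample, and 3 counts, the smallest sum taken as detected in a sample, corresponded to between 0.107 and 0.137 CPM, the count scaled to 1e6 counts of a TMM-scaled library. This floor covers counting error only. CPM was used to compare samples, and TPM, which also divides by transcript length, to compare genes. The lines differed in cell type markers. Of 8 mammary epithelial markers, 6 reached a TPM of 1 in all 4 samples of 4T1 vehicle and 7 in 4T1 CIX, with summed TPM between 2692 and 3200. In 67NR none of the 8 did, and the sum was at most 4.70, so the epithelial label of mammary carcinoma was not borne out there by these markers. Of 6 mesenchymal markers, 4 were expressed in both 67NR groups and 2 in both 4T1 groups, and Vim was expressed in all 4 groups. Endothelial markers were expressed in no group. Of 12 leukocyte markers at most 2 were expressed in any group, and Adgre1 and Cpa3 were at 0 in all 16 samples. Most of the summed leukocyte level came from Cd68, a lysosomal protein gene, which gave 71.4 to 117 TPM in 4T1 vehicle, 173 to 264 in 4T1 CIX, 9.94 to 15.6 in 67NR vehicle and 46.3 to 52.2 in 67NR CIX.

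A gene was called expressed in a group if its TPM was at least 1 in all 4 samples. By this measure 8 of the 10 cytokine genes were expressed in at least 1 group and 4 in every group, namely Il11, Il18, Lif and Csf1. Il33 was expressed in both 67NR groups and in neither 4T1 group, and Il1a and Csf3 in both 4T1 groups and in neither 67NR group. Csf2 was expressed in 4T1 vehicle but not in 4T1 CIX. Il1rn and Il6 were expressed in no group. Per transcript length, Csf3 was the highest of the 10 genes in 4T1 vehicle, with 1730 ± 937 TPM (SD, n = 4), which ranked 69 among all 33072 genes. Il1a followed at 185 ± 85.2 TPM. In 67NR vehicle the highest was Csf1 with 173 ± 20.6 TPM, at rank 922, followed by Lif with 20.2 ± 3.99 TPM. In vehicle the highest RNAs of the 10 genes therefore differed between the lines, Csf3 and Il1a in 4T1 and Csf1 in 67NR. In 4T1 CIX the means were 509 TPM for Csf3, 118 for Il1a and 117 for Csf1.

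**Figure D1:**
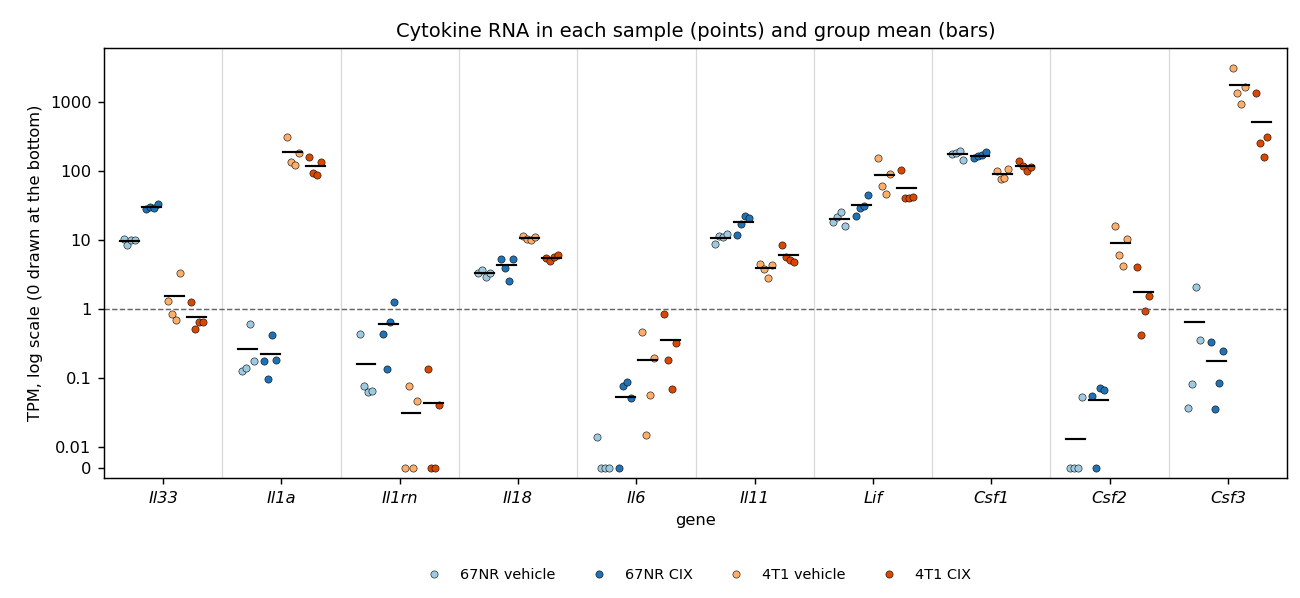
TPM of the 10 cytokine genes in each of the 16 samples on a log axis, with points for samples, bars for group means of 4 and a dashed line at a TPM of 1; samples at 0 are drawn at the bottom. Csf3 and Il1a lie at or above 87.9 TPM in all 8 samples of 4T1 and at or below 2.09 TPM in all 8 samples of 67NR, while Il33 has the opposite order.

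Il33 was low in 4T1 and was higher with CIX in 67NR. In 67NR vehicle it gave 10.6, 8.63, 10.1 and 10.9 CPM in samples 1, 5, 9 and 13, which rest on 269, 194, 254 and 256 counts. With CIX it gave 30.3, 31.4, 29.7 and 33.5 CPM in samples 2, 6, 10 and 14, from 652 to 786 counts. The ranges were far apart, and the values within each group were close together. The log2 fold change was 1.62 (SE 0.10), a 3.07-fold higher level with CIX. In 4T1 vehicle Il33 gave 1.28, 0.8294, 0.731 and 3.08 CPM in samples 3, 7, 11 and 15, from 31, 19, 17 and 75 counts. With CIX it gave 1.33, 0.515, 0.680 and 0.684 CPM in samples 4, 8, 12 and 16, from 33, 12, 19 and 17 counts. The 4T1 ranges overlapped, and sample 15 stood above the other vehicle samples. In vehicle the log2 fold change of 4T1 against 67NR was -2.99 (SE 0.35). Because bulk RNA was measured, fewer cells with Il33 RNA and less Il33 RNA per cell cannot be told apart. Il33 was left out of the 4T1 fit, since its TPM was at least 1 in only 2 of the 4 vehicle samples and 1 of the 4 CIX samples. A fit without that filter gave a log2 fold change of -0.69 (SE 0.49), which rests on vehicle sample 15, with 75 of the 142 counts of its group. Without this sample the ratio of mean CPM, CIX to vehicle, moved from 0.543 to 0.849, and that of 4T1 to 67NR vehicle from 0.147 to 0.0941. The order of the groups was 67NR CIX, 67NR vehicle, 4T1 vehicle and 4T1 CIX, and only the last 2 overlapped.

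The gene of the interleukin-33 receptor, Il1rl1, had the same order of lines. It was at 394 ± 22.9 CPM in 67NR vehicle (SD, n = 4), 321 ± 37.3 in 67NR CIX, 7.22 ± 4.81 in 4T1 vehicle and 0.397 ± 0.365 in 4T1 CIX. The lines did not overlap, and neither did the 4T1 groups. In 4T1 vehicle the 4 samples gave 150, 125, 329 and 75 counts, and in 4T1 CIX 2, 4, 25 and 11 counts. Il1rl1 was 64.0-fold lower in 4T1 than in 67NR in vehicle (log2 fold change -6.00, SE 0.31, adjusted p = 4.88e-07 by limma-voom). Il1rl1 was left out of the 4T1 fit, since none of its 4T1 CIX samples reached a TPM of 1. It entered the comparison of the responses of both lines through 67NR alone, so the fitted difference of -4.03 on the log2 scale (SE 0.71), or -1.45 on the log2(TPM + 1) scale, is given as a value without a call. In 67NR alone its log2 fold change with CIX was -0.32 (SE 0.09, adjusted p = 0.0435), which did not pass the threshold of 0.001. The co-receptor gene Il1rap ranged from 43.0 ± 4.62 CPM in 67NR vehicle to 63.2 ± 9.29 in 4T1 vehicle.

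**Figure D2:**
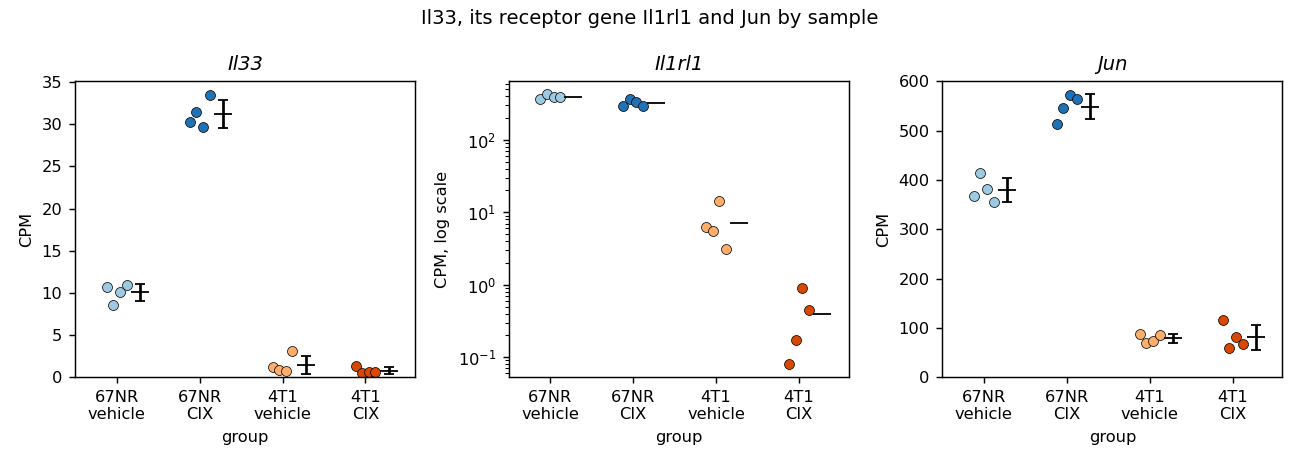
CPM of Il33, of its receptor gene Il1rl1 (log axis) and of Jun in each sample of the 4 groups; points are samples, horizontal marks are means of 4 and error bars, on the linear axes, are SD. Il33 averages 31.2 CPM in 67NR CIX and 10.1 in 67NR vehicle, and Il1rl1 is at or above 291 CPM in all 67NR samples and at or below 14.2 in all 4T1 samples.

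The genes whose levels over the 16 samples were most like those of Il33 were ranked by Pearson correlation of log2 CPM among 12628 genes. The nearest were Jun (r = 0.973), a subunit of AP-1, followed by Lgi2, Foxl1, Ndst3 and Sapcd1 (r between 0.971 and 0.973). The most opposite were Cyp1b1, a cytochrome P450 of hormone metabolism, Mtfr2, Ska3, Depdc7 and Lfng (r between -0.976 and -0.970). The 16 samples fall into 4 groups, so these values mostly reflect the group means. With the group means removed, r was 0.642 for Jun, 0.658 for Sapcd1 and 0.293 for Foxl1. Jun gave 380 ± 25.1 CPM in 67NR vehicle, 549 ± 25.8 in 67NR CIX, 79.0 ± 9.32 in 4T1 vehicle and 81.0 ± 25.1 in 4T1 CIX.

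Il1a, encoding the alarmin interleukin-1α, was a 4T1 gene. It gave 459, 200, 186 and 255 CPM in 4T1 vehicle samples 3, 7, 11 and 15, and 248, 146, 142 and 214 CPM in 4T1 CIX samples 4, 8, 12 and 16. In 67NR vehicle it gave 5, 5, 23 and 7 counts in samples 1, 5, 9 and 13, and in 67NR CIX 7, 4, 14 and 7 counts in samples 2, 6, 10 and 14. Vehicle and CIX overlapped in each line, and the lines did not overlap. The mean in 4T1 vehicle was 675 times that in 67NR vehicle, and 1148 times without 67NR sample 9, which holds 23 of the 40 counts. CIX against vehicle in 4T1 gave a log2 fold change of -0.52 (SE 0.30). The filter removed Il1a from the fits in 67NR and between the lines.

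Il1rn, encoding the antagonist of the same receptor, was near the floor. Its 4 samples summed to 18 counts in 67NR vehicle, 66 in 67NR CIX, 3 in 4T1 vehicle and 5 in 4T1 CIX. Of the 18 counts, 12 were in sample 1, and the 67NR CIX samples gave 14, 4, 16 and 32 counts. The ranges of the 67NR groups overlapped. The 4T1 groups, at 3 and 5 counts, differed by a ratio of 1.57 (95% counting interval 0.305 to 10.1), so no difference was detectable at this depth.

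Il18, whose product is activated by caspase-1, was expressed at a low level in all groups. In 4T1 vehicle it gave 6.63, 5.98, 6.07 and 6.28 CPM, and in 4T1 CIX 3.43, 3.09, 3.58 and 3.82 CPM. Every CIX sample was below every vehicle sample, and the log2 fold change was -0.86 (SE 0.16). In 67NR vehicle it gave 2.06, 2.22, 1.74 and 2.17 CPM and in 67NR CIX 3.51, 2.47, 1.59 and 3.22 CPM, which overlapped. The log2 fold change in 67NR was 0.34 (SE 0.26). In vehicle Il18 was 3.03-fold higher in 4T1 than in 67NR (log2 fold change 1.60, SE 0.16), while with CIX the ranges of the lines overlapped.

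Il6 was expressed in no group. Its counts were 0 in all 4 samples of 67NR vehicle and summed to 5 in 67NR CIX, 16 in 4T1 vehicle and 35 in 4T1 CIX. The highest samples were 4T1 CIX 4 with 21 counts and 4T1 vehicle 3 with 11 counts, and the ranges of the 4T1 groups overlapped. The 4T1 and 67NR ranges overlapped too, in vehicle and with CIX, and 4T1 vehicle sample 7 held 0 counts.

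Il11, a gp130 cytokine, was higher in 67NR, and its mean was higher with CIX in both lines. In 67NR vehicle it gave 9.26, 11.9, 11.2 and 13.4 CPM, and in 67NR CIX 13.0, 18.4, 23.1 and 21.4 CPM. In 4T1 vehicle it gave 4.49, 3.80, 2.93 and 4.10 CPM, and in 4T1 CIX 8.89, 5.88, 5.51 and 5.07 CPM. The 4T1 groups did not overlap, and in 67NR the lowest CIX sample lay just under the highest vehicle sample. The log2 fold changes with CIX were 0.68 (SE 0.24) in 4T1 and 0.69 (SE 0.20) in 67NR. In vehicle the log2 fold change of 4T1 against 67NR was -1.58 (SE 0.20).

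Lif, encoding leukemia inhibitory factor, was higher in 4T1 but spread widely there. In 4T1 vehicle it gave 314, 125, 98.1 and 175 CPM, and in 4T1 CIX 221, 86.0, 88.9 and 92.2 CPM. In 67NR vehicle it gave 39.3, 46.2, 53.7 and 36.8 CPM, and in 67NR CIX 49.97, 63.8, 66.5 and 95.4 CPM. CIX and vehicle overlapped in each line, and the estimates had opposite signs, -0.55 (SE 0.40) in 4T1 and 0.60 (SE 0.19) in 67NR. In vehicle 4T1 was 3.67-fold above 67NR (log2 fold change 1.88, SE 0.34), and with CIX the lines overlapped.

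Csf1, encoding M-CSF, was the only colony-stimulating factor gene expressed in 67NR. It was at 274 ± 24.6 CPM in 67NR vehicle (SD, n = 4), 265 ± 14.6 in 67NR CIX, 133 ± 20.0 in 4T1 vehicle and 186 ± 24.8 in 4T1 CIX. In 4T1 the vehicle samples gave 148, 112, 121 and 153 CPM and the CIX samples 220, 184, 161 and 180 CPM. Every 4T1 CIX sample was above every vehicle sample, with a log2 fold change of 0.46 (SE 0.14), while in 67NR it was -0.07 (SE 0.07). In vehicle Csf1 was 2.08-fold lower in 4T1 than in 67NR (log2 fold change -1.06, SE 0.12).

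Csf2, encoding GM-CSF, was detected almost only in 4T1. The 4T1 vehicle samples gave 232, 83, 60 and 142 counts, and the 4T1 CIX samples 65, 6, 17 and 24 counts. The groups overlapped through CIX sample 4, and the log2 fold change was -2.57 (SE 0.64). In 67NR it summed to 1 count with vehicle and 3 counts with CIX. The ratio of 4T1 to 67NR in vehicle was 526, with a 95% counting interval of 94.1 to 20833.

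Csf3, encoding G-CSF, was the most abundant of the 10 genes in 4T1 per transcript length, and its level differed widely between 4T1 libraries. The 4T1 vehicle samples 3, 7, 11 and 15 gave 3283, 1400, 1030 and 1629 CPM, and the CIX samples 4, 8, 12 and 16 gave 1489, 283, 183 and 350 CPM. Of the CIX samples, 3 were below every vehicle sample, and sample 4 lay inside the vehicle range. The log2 fold change was -2.06 (SE 0.58), a 4.18-fold lower level with CIX, and without sample 4 it was -2.69. In 67NR vehicle the counts were 1, 2, 58 and 10, and in 67NR CIX 10, 1, 2 and 6. The mean in 4T1 vehicle was 2575 times that in 67NR vehicle, and 9950 times without 67NR sample 9, which holds 58 of the 71 counts. The fitted log2 fold change of 12.48 (SE 1.28) rests on these low 67NR counts, and was 11.65 without sample 1 and 13.46 without sample 9.

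Several genes that were high in 4T1 gave a trace in the same 67NR library. In 67NR vehicle sample 9, Csf3 reached 0.125% and Il1a 0.332% of their 4T1 vehicle means, and the epithelial genes Epcam and Cdh1 reached 0.101% and 0.152%. For each of these 4 genes sample 9 was the highest of the 67NR vehicle group. Csf2 held 0 counts in sample 9, and its single 67NR vehicle count was in sample 13. The part of 4T1 RNA in these traces was not tested.

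Libraries 3 and 4 of 4T1 stood apart for the cytokine genes. Sample 3 was the highest 4T1 vehicle sample for 7 of the 10 genes and sample 4 the highest 4T1 CIX sample for 9 of 10. Over the 11676 genes tested in 4T1, each of them was the highest of its group for 34.1%. Leaving both out gave log2 fold changes with CIX of -2.34 for Csf3 and -2.77 for Csf2, and 1 of the 7 tested members, Csf3, then passed the threshold, as did 7.07% of 12064 genes. Leaving out 1 library at a time gave -2.69 to -1.67 for Csf3 and -3.13 to -2.07 for Csf2. This setting was chosen after the values were seen.

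**Figure D3:**
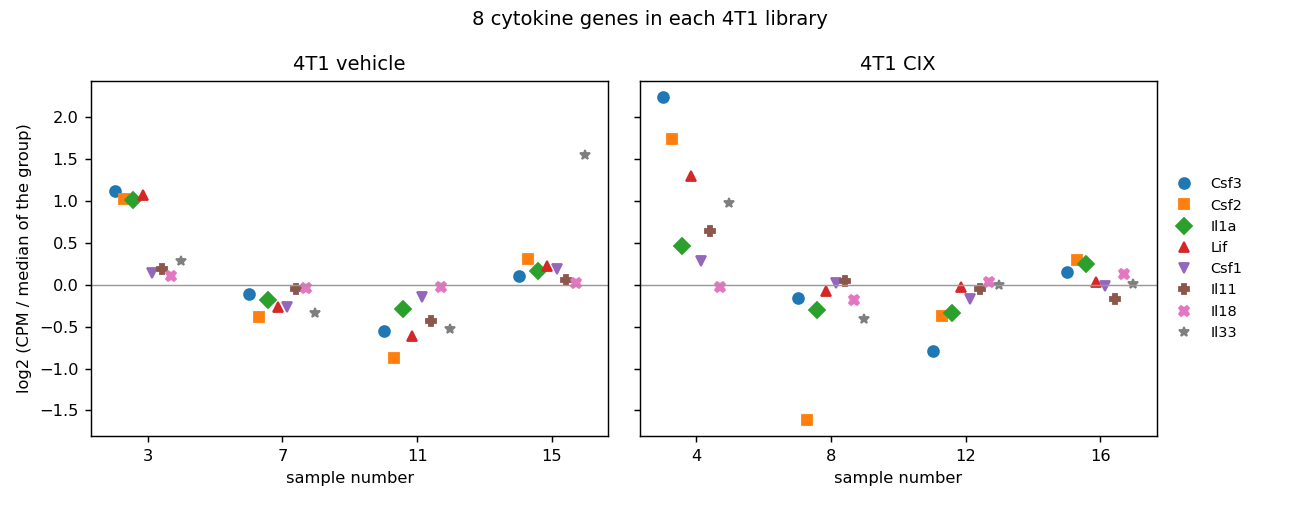
Log2 ratio of CPM to the median of the group for 8 cytokine genes in each 4T1 library, vehicle on the left and CIX on the right. In vehicle sample 3, Csf3, Csf2, Il1a and Lif lie between 1.01 and 1.12 above the median, and in CIX sample 4 Csf3, Csf2 and Lif lie between 1.29 and 2.23 above it.

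Counts of calls at an adjusted p below 0.001 are given with the share over all genes tested, and nothing is read from them because the genes were chosen with these values known. With CIX in 4T1, 0 of the 7 tested members were called, and 9.28% of 11676 genes were. At a threshold of 0.05 limma-voom called 5 of 7 (42.7% of all genes), and 5 had an unadjusted p below 0.05 (51.1% of all genes). At 0.001 edgeR called 0 (8.80%), DESeq2 called 2 (26.5%), and limma-voom fitted over all 16 samples called 2 (23.0%). With CIX in 67NR, 1 of the 5 tested members was called, Il33, and 0.389% of 11583 genes were, and at 0.05 it was 2 of 5 (17.8%). The call of Il33 was lost in 6 of the 8 fits that left out 1 library (those without sample 1, 5, 6, 9, 10 or 14), which have 7 samples each. Of all genes, 0 were called without sample 5, 6, 9, 10 or 14, and 0.0171% of 11669 without sample 1. The log2 fold change of Il33 stayed between 1.55 and 1.67 over the 8 fits. Between the lines in vehicle, 6 of 6 tested members were called, and 40.0% of 11057 genes were, or 67.4% at 0.05. Of these members, Il11, Il18, Lif and Csf1 were expressed in both lines, while Il33 and Csf3 passed the filter through the line in which they were high, Csf3 with the 2.09 TPM of 67NR sample 9. The call of Lif was lost in 6 of the 8 fits that left out 1 library (those without sample 1, 5, 7, 9, 13 or 15). Ranges did not overlap between 4T1 CIX and vehicle for 3 of the 7 tested members (39.9% of all genes), namely Il11, Il18 and Csf1. In 67NR this held for 1 of 5 (23.3%), which was Il33. Between the lines it held for 8 of the 10 members in vehicle (61.6% of genes tested) and for 7 of 10 with CIX (57.6%). These member counts include genes that the filter left out, among them Il1a and Csf2 in vehicle. The shares cover only genes that passed it, so the bases are unlike.

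**Figure D4:**
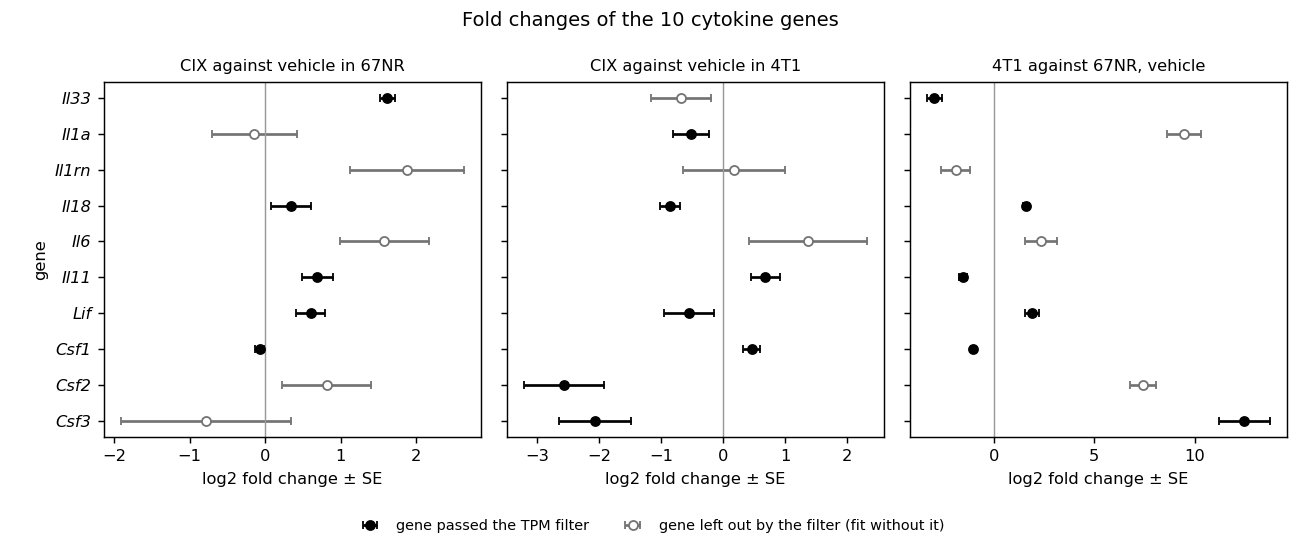
Log2 fold change with its SE for the 10 cytokine genes in 3 comparisons: CIX against vehicle in 67NR, the same in 4T1, and 4T1 against 67NR in vehicle. Filled points passed the TPM filter and open points come from the fit without it; the axes differ in scale, and in 67NR Il33 lies farthest to the right of the filled points at 1.62.

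The responses of the 2 lines to CIX were compared with an interaction term. A gene entered this fit if it passed the filter in either line. Il33 therefore entered through 67NR, and Il1a, Csf2 and Csf3 entered through 4T1, so the counts below say little of these 4 genes. Of the 8 members fitted, limma-voom called 0, and it called 7.86% of 12629 genes. At a threshold of 0.05 it called 3 (29.3% of all genes), and 5 had an unadjusted p below 0.05 (39.1%). At 0.001 edgeR called 0 (8.02%) and DESeq2 called 2 (15.7%). The differences in log2 response, 4T1 minus 67NR, were -2.36 (SE 0.44) for Il33, -1.20 (SE 0.29) for Il18, -1.15 (SE 0.50) for Lif and 0.53 (SE 0.16) for Csf1. For Il11 it was -0.01 (SE 0.33). For Csf3 it was -1.28 (SE 3.00), an error so wide that no direction can be given.

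Genes around these cytokines were taken from 9 lists with 146 genes in all, which were also drawn up with earlier results known. The adjusted p-values and counts of these genes, here and above, therefore describe these data and are not a test of lists fixed beforehand. Nothing is read from a share that differs from that of all genes. With CIX in 4T1, 2 of 104 tested genes rose and 2 fell, which is 3.85% against 9.28% of all genes. DESeq2 called 24 of them (26.5% of all genes), sample weights gave 20 (21.6%), the fit over all 16 samples 19 (23.0%), and a threshold of 0.05 gave 39 (42.7%). In 67NR, 0 of 97 were called by limma-voom at 0.001, and 0.389% of all genes were. At 0.05 it was 17 of 97 (17.8% of all genes), 33 had an unadjusted p below 0.05 (32.8%), and at 0.001 edgeR called 0 (0.397%) and DESeq2 called 7 (9.00%). Between the lines, 29 of 94 were higher and 17 lower in 4T1, which is 48.9% against 40.0% of all genes. The median log2 fold change over these genes was -0.10 with CIX in 4T1, 0.03 with CIX in 67NR and 0.18 between the lines, and over all genes tested it was -0.01 in each.

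Among other ligands, Il1b followed Il1a. It summed to 677 counts in 4T1 vehicle, 272 in 4T1 CIX, 0 in 67NR vehicle and 1 in 67NR CIX, and its 4T1 log2 fold change of -1.39 (SE 0.37, adjusted p = 0.0134) did not pass the threshold. Il23a, the p19 subunit of interleukin-23, fell with CIX in 4T1 from 118 ± 21.1 to 48.6 ± 5.80 CPM (log2 fold change -1.29, SE 0.14, adjusted p = 0.000212). The call was lost without sample 7, 8 or 16 and kept without each of the other 5 libraries. Its 67NR means were far lower, 0.115 CPM in the vehicle samples and 0.189 in those with CIX. Tslp, an epithelial alarmin, was at 93.7 ± 55.9 CPM in 4T1 vehicle and 3.43 ± 0.323 in 67NR vehicle (log2 fold change 4.59, SE 0.56, adjusted p = 7.79e-05). Kitl, the ligand of the Kit receptor, had the opposite order, with 15.6 ± 2.55 and 315 ± 14.8 CPM (log2 fold change -4.36, SE 0.11, adjusted p = 3.29e-08). Il7, a lymphocyte growth factor, and Clcf1, a gp130 ligand, were also lower in 4T1, with log2 fold changes of -2.76 (SE 0.19, adjusted p = 2.17e-06) and -1.43 (SE 0.19, adjusted p = 0.000111). With CIX in 4T1, 0 of 2 other interleukin-1 family ligand genes and 0 of 3 other interleukin-6 family ligand genes were called by limma-voom (9.28% of all genes). At 0.05 both of the former, Il1b and Il1f9, the latter named after its value was seen, were lower, and 0 of the 3 interleukin-6 family genes were called (42.7% of all genes).

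Of 18 receptor and decoy genes, 10 were tested between the lines. Sigirr, an inhibitory receptor of the interleukin-1 family, was higher in 4T1 (91.4 ± 13.8 against 6.87 ± 0.621 CPM, log2 fold change 3.71, SE 0.16, adjusted p = 2.17e-07). Il18rap, a subunit of the interleukin-18 receptor, was higher too (90.3 ± 13.4 against 18.2 ± 2.23 CPM, log2 fold change 2.29, SE 0.14, adjusted p = 1.29e-06). The other subunit, Il18r1, was at most 0.516 CPM on average in any group. The receptor genes of the colony-stimulating factors were also low. Csf1r, Csf2ra and Csf3r averaged at most 0.513 CPM in any group, Csf2rb at most 1.17 and Csf2rb2 at most 1.31. Il6st was between 176 ± 36.7 and 235 ± 21.1 CPM, Il6ra between 31.7 ± 4.68 and 50.2 ± 8.98, and Il11ra1 between 4.70 ± 1.34 and 10.7 ± 2.72. Lifr, the receptor of Lif, was at 1.55 ± 0.535 CPM in 4T1 vehicle and 4.11 ± 0.412 in 4T1 CIX, without a test because of its low level. Il1r1, the receptor of interleukin-1, gave 8.99 ± 3.20 CPM in 4T1 vehicle and 17.4 ± 3.40 in 67NR vehicle.

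In the list of processing and release genes, Casp1, encoding the protease that activates interleukins 1β and 18, fell with CIX in 4T1 from 28.9 ± 3.31 to 9.98 ± 1.32 CPM (log2 fold change -1.56, SE 0.15, adjusted p = 0.000106). This call was kept in all 8 fits that left out 1 library. The pore-forming gasdermin gene Gsdmd rose from 12.2 ± 2.58 to 28.99 ± 3.94 CPM (log2 fold change 1.23, SE 0.18, adjusted p = 0.000684). Capn2, a calpain subunit, rose from 179 ± 9.70 to 284 ± 24.1 CPM (log2 fold change 0.64, SE 0.09, adjusted p = 0.000565). The calls of Gsdmd and Capn2 were lost whenever any 1 of the 8 libraries was left out, with log2 fold changes that stayed between 1.13 and 1.33 for Gsdmd and between 0.564 and 0.702 for Capn2 over all alternatives. The responses of Casp1 and Gsdmd differed between the lines by -1.21 (SE 0.22, adjusted p = 0.000879) and 1.17 (SE 0.20, adjusted p = 0.000434). These were kept in 1 and 7 of the 16 fits that left out 1 library. In vehicle, Gsdme, another gasdermin gene, was 11.0-fold lower in 4T1 than in 67NR (adjusted p = 1.91e-07).

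In the interleukin-1 receptor signalling list, 7 of 14 tested genes were higher and 1 was lower in 4T1 vehicle than in 67NR vehicle, which is 57.1% against 40.0% of all genes. The adaptor gene Myd88 was at 57.7 ± 8.82 against 15.5 ± 2.93 CPM (log2 fold change 1.90, SE 0.16, adjusted p = 8.38e-06). Irak2 and Tollip were higher by 1.498 and 1.485 on the log2 scale, and the kinase gene Irak1 was the lower one, at -1.35. In the gp130 and CSF receptor signalling list, 2 of 14 were higher and 4 lower, which is 42.9% and close to the 40.0% of all genes. Stat3, the transcription factor downstream of gp130, was 2.50-fold higher (adjusted p = 8.90e-05), and its feedback inhibitor genes Socs1 and Socs2 were 8.41-fold and 4.24-fold lower (adjusted p = 1.67e-06 and 1.13e-05). Socs3, another feedback inhibitor gene of this list, named after its value was seen, had a log2 fold change of -0.81 (SE 0.45, adjusted p = 0.142). Pias3, an inhibitor of STAT3, differed in its response to CIX by 1.02 (SE 0.18, adjusted p = 0.000707), a call kept in 3 of the 16 fits that left out 1 library.

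Among 22 genes of cytokine gene transcription, 8 of 16 tested were higher and 3 lower in 4T1 vehicle, which is 68.8% against 40.0% of all genes. Of its Jun and Fos genes, 5 of 7 were tested. Jun was lower in 4T1 (log2 fold change -2.28, SE 0.10, adjusted p = 2.18e-07) and so was Fosl1 (-1.27, SE 0.17, adjusted p = 0.000119), while Junb (2.62, SE 0.12, adjusted p = 3.36e-07) and Jund (1.63, SE 0.12, adjusted p = 3.55e-06) were higher and Fosl2 was not called (-0.0059, SE 0.081). With CIX in 67NR, Jun had a log2 fold change of 0.51 (SE 0.06, adjusted p = 0.0017), which missed the threshold. Of 17 genes of cytokine mRNA stability, 5 were higher and 1 lower in 4T1 vehicle, which is 35.3% against 40.0% of all genes. Zc3h12a, an RNase that cleaves cytokine RNAs, was higher (57.3 ± 18.5 against 8.31 ± 0.676 CPM, adjusted p = 1.56e-05), and Zfp36l2, which binds AU-rich motifs, was lower (93.6 ± 6.58 against 251.3 ± 37.1 CPM, adjusted p = 4.08e-06). With CIX, none of the genes of these 2 lists was called in either line by limma-voom at 0.001, while at 0.05 it was 12 of 38 in 4T1 (42.7% of all genes) and 8 of 34 in 67NR (17.8%).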

How the data were processed

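RNA from 16 samples, 4 for each of 4 groups, was sequenced from stranded poly-A libraries. Per the labels and the study's methods, reads were quantified with Salmon on the mouse Ensembl transcriptome GRCm38 and summed to genes with tximport. The deposited file holds estimated counts for 33072 genes, and the submitters' notes name Salmon 0.12. Whether the counts were scaled for transcript length is not given in the sources used here. The values were rounded to whole counts, and per-sample sums were 21715700 to 29450629. Column numbers in the file were matched to the numbers in the sample titles.

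Counts were analysed with limma-voom (limma 3.58.1, edgeR 4.0.16, R 4.3.3). The test, the limits of the filter and the threshold follow the study's methods, and TMM scaling of libraries was added here. The study does not state over which samples its filter was counted, so counting it within each comparison was a choice made here. A gene was tested only if at most 3 of the samples compared had a TPM under 1 (for the comparison of responses, at most 3 of the 8 samples of either line), and a Benjamini-Hochberg adjusted p below 0.001 was the threshold. TPM was computed from the counts and the mean length of each gene's transcripts in GENCODE vM21. Each comparison was fitted on its own samples, and the responses of the lines on all 16. The 10 cytokine genes and the pathway and marker lists were chosen with earlier results of these data known. For the lists, up to 3 called genes with the largest changes in each direction were named per list and comparison. Alternatives were edgeR's quasi-likelihood test, DESeq2 1.42.0, other scalings, filters and thresholds, sample weights, limma on log2(TPM + 1) and log2(TPM + 0.1), and leaving out each library. The study's methods call the 4 samples of a group biological replicates, and the labels do not say more, so the p-values measure the spread between these samples. Promoters came from RefSeq (GRCm38.p6) and 3′ untranslated regions from GENCODE vM21. The code was tested on simulated data. A gene of the pathway lists that the naming rule would include is not reported here.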

Additional observations from a re-analysis of the deposited data

Results flagged for a closer look

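Among 234 groups of 4 samples, for 59 named genes, 18 held a sample whose gap to the nearest of the others was larger than the 95% limit of Dixon's test for 4 samples. Chance alone gives about 1 in 20 groups, or 11.7. Of the 18, 7 were among the 40 groups of the cytokine genes. In 4T1 CIX sample 4, Csf3 stood at 1489 CPM against 183 to 350 in the other samples of its group, and Lif at 221 CPM against 86.0 to 92.2. In the same library Fosl1 was at 125 CPM, Nfkbiz at 125 CPM and Socs1 at 4.36 CPM, each the highest of its group. In 67NR vehicle sample 9, Csf3 stood at 2.30 CPM from 58 counts and Il1a at 0.911 CPM from 23 counts. The other members rest on very few counts. Il1rn was at 0.475 CPM in 67NR vehicle sample 1, from 12 counts. Csf2 was at 0.0425 CPM in 67NR vehicle sample 13, from 1 count, and at 0 CPM in 67NR CIX sample 6, where the other samples held 1 count each.

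Of the receptor genes, Il6st was at 231 CPM in 67NR vehicle sample 1 against 155 to 162 in the others, Sigirr at 112 CPM in 4T1 vehicle sample 3, Lifr at 2.35 CPM in the same library and Csf1r at 0.0425 CPM in 67NR vehicle sample 13. The remaining such values were Ets2 at 142 CPM in 4T1 vehicle sample 11, Zc3h12a at 12.5 CPM in 67NR CIX sample 14, and the low values of Casp8 at 34.3 CPM in 67NR vehicle sample 13 and Irak2 at 11.9 CPM in 67NR CIX sample 6. What sets these libraries apart was not tested.

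The interaction term for the response to CIX in the 2 lines passed the threshold for 4 of 107 tested genes of the pathway lists, which is 3.74% against 7.86% of all 12629 genes. The difference in log2 fold change, 4T1 minus 67NR, was -1.21 for Casp1, 1.17 for Gsdmd and 1.02 for Pias3. For Il1rl1 it was -4.03, but this gene entered the fit through 67NR alone, and none of its 4T1 CIX samples reached a TPM of 1, so that it is given without a call and 3 genes remain.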

How the results depend on the processing

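No paired analysis was run because the groups share no replicate numbers and no label ties samples of different groups to a set, batch or day. The sample numbers do run through the 4 groups in turn, but a fit with such sets was left out because only the order of the samples gives them. The ranges and calls given for 4T1 are therefore unpaired. Whether a level shared by neighbouring vehicle and CIX samples adds to the overlap of the 4T1 groups was not tested. Set beside the vehicle sample just before it in this order, and noticed after the values were seen, each 4T1 CIX sample was lower for Il1a, Il18, Lif, Csf2 and Csf3 and higher for Il11 and Csf1, so that 7 of 7 tested members moved one way, as did 62.0% of 11676 genes. In 67NR it was 3 of 5 (41.4% of 11583 genes), namely Il33, Il11 and Lif, each higher. Without leaving out a library, 317 of the alternative values kept their direction and their side of the threshold, 14 newly passed it, 16 no longer passed it and 4 changed sign. With CIX in 4T1, the 4 pathway calls became 24 with DESeq2, 19 in a fit over all 16 samples, 20 with sample weights, 39 at a threshold of 0.05 and 1 to 6 without 1 library. The 0 member calls became 2 with DESeq2, 2 in the fit over all 16 samples, 3 with sample weights, 5 at 0.05, 1 on either log2 TPM scale and 1 without samples 3 and 4, and stayed 0 without any 1 library. With CIX in 67NR, the 0 pathway calls became 7 with DESeq2, 1 with sample weights and 17 at 0.05, and the 1 member call became 2 at 0.05 and 0 to 1 without 1 library. Between the lines, the 46 pathway calls became 70 at 0.05 and 40 to 51 without 1 library, and the 6 member calls 5 to 7. For the difference in response, the 4 pathway calls became 16 with DESeq2, 15 with sample weights, 36 at 0.05 and 0 to 6 without 1 library. The 0 member calls became 2 with DESeq2, 1 with sample weights, 3 at 0.05, 1 on the log2(TPM + 1) scale and 0 to 1 without 1 library. A pair of members changed sign in that comparison. Csf3 went from -1.28 to 0.17 with edgeR and 0.20 with DESeq2. Il11 went from -0.01 to 0.0297 without a filter, to 0.0038 with a filter on CPM and to between -0.19 and 0.10 without 1 library. The causes were not tested. Leaving out a library also leaves fewer samples to fit, and 77 of the values with a library left out no longer passed the threshold, 3 newly passed it and 8 changed sign. Depth limits Il1rn and Il6 in all groups and Csf2, Csf3 and Il1a in 67NR.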
